A study of Mus musculus with 51 samples.

Results

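Fatty acids reach a muscle fibre from plasma lipoproteins and from its own lipid droplets, are loaded onto coenzyme A, cross into the mitochondrion as carnitine esters and are shortened by the beta-oxidation spiral, whose electrons pass through electron transfer flavoprotein to the respiratory chain. The module described here is made of 33 genes for these steps, chosen by name as a pathway from the 48321 gene symbols of each count table. The members are 6 genes of uptake and activation, 3 of the lipid droplet and lipolysis, 6 of mitochondrial entry, 12 of beta-oxidation, 3 of electron transfer and 3 that handle surplus acyl groups or uncouple. BMAL1, encoded by Arntl, is a core transcription factor of the circadian clock and binds E-box sequences. VHL is the substrate receptor of a ubiquitin ligase that marks hypoxia-inducible factors (HIF) for breakdown, so that cells without VHL keep HIF in normal oxygen. In muscle, many genes of fatty acid oxidation are known targets of the nuclear receptors of the PPAR and ERR families.

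The series measured messenger RNA in whole gastrocnemius muscle of mice by QuantSeq, which counts 1 tag near the 3′ end of each transcript, in 51 libraries, each from a separate animal. Batch 1 held Bmal1KO mice on high-fat diet (n = 5) and their Bmal1fx/fx controls on the same diet (n = 7), and Bmal1KO mice on regular chow (n = 3) with Bmal1fx/fx controls on chow (n = 4). Batch 2, all on high-fat diet, held Bmal1KO mice (n = 4) and Bmal1fx/fx controls (n = 8), VhlKO mice (n = 4) and Vhlfx/fx controls (n = 6), and Bmal1KO;VhlKO mice (n = 4), called double knockouts below, with Bmal1fx/fx;Vhlfx/fx controls (n = 6). The Bmal1 knockout is specific to skeletal muscle per the series' design text. For the Cre driver, the deleted exons, the age of the mice and the hour of harvest, the labels and the design text used here state nothing. Animals are called KO or control with the number of their label. Some Bmal1 KO of batch 2 bear another number in the deposited counts, and the samples' descriptions were used to match them.

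Of the members, 27 had an entry in the RefSeq promoter table (build GRCm38.p6), which gives up to 250 bases before and 50 after a transcript's start. Those of 4 genes whose values the results turn on are shown 5′ to 3′ on the strand of the gene. Capitals mark letters found on either strand among AGGTCA, the half-site that PPAR and ERR receptors bind (TGACCT on the other strand), CACGTG, the E-box of BMAL1, and ACGTG, the core of HIF response elements, which every CACGTG contains. Acadm stands for the beta-oxidation genes that were higher without Bmal1 and lower without Vhl. Hadhb shares its short upstream window with the start of Hadha, which runs the other way. Both were called in the same direction in the single knockouts on high-fat diet. Neither was called in Bmal1 KO on chow, and in the double knockout only Hadha was. Plin2 and Acacb followed other patterns.
Acadm (chr3:153944644-153944893, minus strand): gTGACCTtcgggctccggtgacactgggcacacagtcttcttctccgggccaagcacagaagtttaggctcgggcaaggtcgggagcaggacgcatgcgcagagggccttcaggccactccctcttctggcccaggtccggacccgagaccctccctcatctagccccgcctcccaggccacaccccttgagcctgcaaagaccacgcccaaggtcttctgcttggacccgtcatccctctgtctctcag
Hadhb (chr5:30155163-30155247, plus strand): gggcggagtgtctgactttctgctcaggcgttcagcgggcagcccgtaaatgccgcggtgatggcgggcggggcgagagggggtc
Plin2 (chr4:86670058-86670309, minus strand): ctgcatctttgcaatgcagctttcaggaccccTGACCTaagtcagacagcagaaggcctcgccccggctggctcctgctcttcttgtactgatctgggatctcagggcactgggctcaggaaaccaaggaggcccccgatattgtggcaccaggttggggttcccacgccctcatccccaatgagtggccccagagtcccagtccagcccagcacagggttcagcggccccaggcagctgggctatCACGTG
Acacb (chr5:114165268-114165508, plus strand): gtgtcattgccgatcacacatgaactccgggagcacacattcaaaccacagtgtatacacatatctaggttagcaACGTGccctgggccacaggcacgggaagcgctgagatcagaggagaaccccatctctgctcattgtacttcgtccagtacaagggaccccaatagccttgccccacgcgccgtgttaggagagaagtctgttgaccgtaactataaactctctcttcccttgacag

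Across the 27 members with a window, CACGTG was found in 2 (Plin2 and Slc27a1; 7.41% of members, 8.09% of all 27025 genes with a window). ACGTG was found in 4 (those and Acacb and Acadvl; 14.8% of members, 21.8% of all genes). AGGTCA was found in 8 (Acacb, Acadm, Acadvl, Cd36, Echs1, Plin2, Plin5 and Ucp3; 29.6% of members, 18.1% of all genes). Acacb has AGGTCA at base 43 after its start, in the part of its window that is not shown. The full PPAR element, 2 AGGTCA half-sites spaced by 1 base, and the ERR element TCAAGGTCA were in none of the members' windows (0.0481% and 0.47% of all genes). A match describes the letters of these windows, not binding.

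Libraries held 6.95 to 14.7 M counts, of which mitochondrial transcripts took 16.6 to 42.4%. Arntl was at 5.29 to 9.03 CPM (counts per 1e6 counts of the library, after scaling) in Bmal1 KO and 12.2 to 18.7 CPM in controls of batch 1 on high-fat diet. The ranges overlapped on chow (KO 4.54 to 9.82, controls 7.97 to 20.8 CPM) and in batch 2 (KO 8.16 to 10.5, controls 8.6 to 12.9 CPM). Vhl was at 0.796 to 2.69 CPM in Vhl KO and 1.69 to 5.09 CPM in controls, and at 1.64 to 3.84 CPM in double KO and 3.48 to 5.62 CPM in controls. A 3′ tag checks a deletion only where it lies in the deleted part, which is not known here. On chow, Bmal1 KO 1 and control 2 stood apart from the other libraries of their own groups. KO 1 summed 318 CPM of lymphocyte and 453 CPM of adipocyte markers (other chow KO at most 221 and 231 CPM). Control 2 summed 172 and 795 CPM (other chow controls at most 71.5 and 517 CPM). Bmal1 KO on high-fat diet in batch 1 summed 227 to 348 and 355 to 568 CPM, ranges that hold chow KO 1. Among Vhl KO, animals 1 and 4 summed 3950 and 3730 CPM of slow-fibre genes and animals 2 and 3 summed 637 and 1260 CPM, with controls at 943 to 1550 CPM. In whole tissue, fewer cells of a type and less RNA per cell cannot be told apart.

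Cpt1b, the muscle form of the carnitine palmitoyltransferase that starts mitochondrial entry, could not be measured. Its rows held 0 to 6 counts a library in batch 1 (31 in all) and 0 to 3 in batch 2 (11 in all), and its exons overlap a same-strand transcript, Gm44502. The other 32 members passed the filter on low counts in both batches. A member is said to have risen or fallen where edgeR's quasi-likelihood test gave a Benjamini-Hochberg adjusted p under 0.05 over all genes of the fit. Log2 fold changes are knockout over its own control, or high-fat diet over chow, ± standard error.

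**Figure D1:**
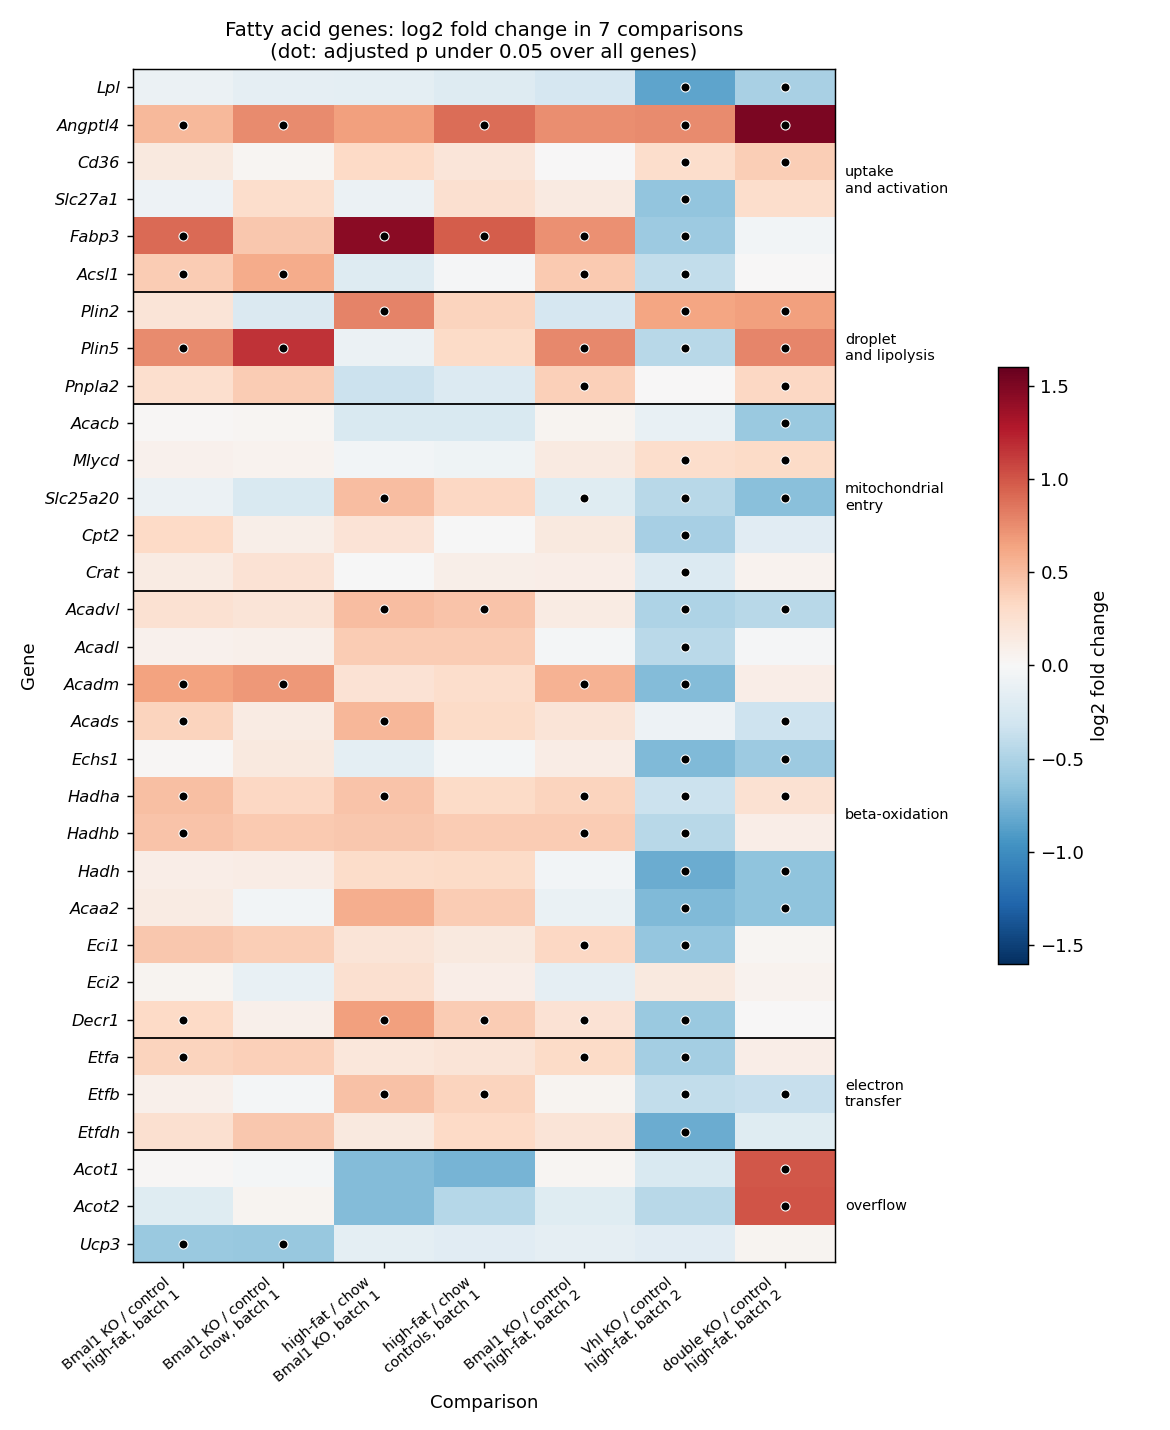
Log2 fold change of the 32 measured members (rows, by role) in 7 comparisons (columns), with a dot where the adjusted p was under 0.05. The Bmal1 columns are mostly positive, with Acadm, Plin5, Fabp3 and Acsl1 among the highest, while 21 members of the Vhl column carry a negative dot.

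Muscle without Bmal1 on high-fat diet held more transcripts of 8 of the 32 members in both batches, Fabp3, Acsl1, Plin5, Acadm, Hadha, Hadhb, Decr1 and Etfa. In batch 1, 10 of 32 members rose and 1 fell, against 3.82% of 12762 genes higher and 5.18% lower (9% in either direction). The median member change was 0.18, that of all genes 0. By role, 5 of 12 beta-oxidation genes rose, 3 of 6 of uptake and activation, 1 of 3 of the droplet and 1 of 3 of electron transfer. None of the 5 measured genes of mitochondrial entry passed. In batch 2, on other animals, again 10 rose and 1 fell (6.94% of 13093 genes higher, 6.96% lower, 13.9% in either direction). In the fit of both batches 15 rose and 1 fell (11.1% of 12565 genes higher, 11.3% lower).

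Acadm (chr3:153922357-153944632), the dehydrogenase that opens the beta-oxidation of medium-chain fatty acids, had the smallest p of the module in both batches. It was at 447, 444, 361, 451 and 393 CPM in Bmal1 KO 1 to 5 of batch 1, and at 238 to 308 CPM (median 266) in the 7 controls. In batch 2 it was at 457, 467, 457 and 432 CPM in Bmal1 KO 6 to 9, against 291 to 327 CPM (median 309) in the 8 controls. Every knockout lay above every control in both batches. The log2 fold changes were 0.64 ± 0.09 (adjusted p = 1.8e-06, 1.56-fold) in batch 1 and 0.56 ± 0.06 (adjusted p = 2.4e-09) in batch 2.

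Hadha and Hadhb encode the alpha and beta subunits of the mitochondrial trifunctional protein, which carries out the last steps of the spiral on long chains. In batch 1 Hadha was at 403, 413, 303, 414 and 295 CPM in Bmal1 KO, and at 228 to 305 CPM (median 258) in controls. KO 3 and 5 lay within the range of the controls and the other KO above it (0.48 ± 0.10, adjusted p = 0.0011). Hadhb moved alike, at 136 ± 23.2 CPM in KO and 99.7 ± 11.2 CPM in controls (SD, 0.45 ± 0.10, adjusted p = 0.0026). In batch 2 Hadha was at 385, 451, 378 and 380 CPM in KO and 273 to 362 CPM (median 306) in controls, and Hadhb at 168, 174, 150 and 158 CPM in KO and 112 to 140 CPM (median 120) in controls, with no overlap for either gene. Decr1, the dienoyl-CoA reductase needed for unsaturated chains, rose in both batches (0.32 ± 0.10, adjusted p = 0.044, and 0.23 ± 0.08, adjusted p = 0.046). Acads, the short-chain dehydrogenase, passed in batch 1 (0.35 ± 0.11, adjusted p = 0.03), and Eci1, an isomerase of unsaturated chains, in batch 2 (0.33 ± 0.11, adjusted p = 0.039).

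Fabp3 (chr4:130308595-130315463), the fatty acid binding protein of heart and muscle cytosol, rose 1.87-fold in batch 1. It was at 1100, 1370, 693, 1380 and 892 CPM in Bmal1 KO, and at 454 to 831 CPM (median 553) in controls. KO 3 alone fell inside the controls' range (0.91 ± 0.19, adjusted p = 0.0043). In batch 2 it was at 1350, 1380, 1290 and 1030 CPM in KO and 628 to 888 CPM (median 771) in controls, without overlap (0.73 ± 0.16, adjusted p = 0.0017). Acsl1, which joins long-chain fatty acids to coenzyme A, rose by about the same in each batch (0.41 ± 0.10, adjusted p = 0.0053, and 0.42 ± 0.09, adjusted p = 4e-04). Angptl4, a secreted inhibitor of lipoprotein lipase, was at 33.7 to 40.1 CPM in KO of batch 1 and 18.3 to 31.8 CPM in controls, and rose (0.52 ± 0.15, adjusted p = 0.033). In batch 2 the size was similar but the test was missed (0.74 ± 0.26, adjusted p = 0.053). Lpl itself did not pass in either batch (-0.10 in batch 1, -0.27 in batch 2).

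On the lipid droplet, Plin5, which ties droplets to mitochondria in oxidative tissue, was at 34.5, 34.7, 21.3, 39.5 and 29 CPM in Bmal1 KO of batch 1 and 12.2 to 23.9 CPM (median 18.4) in controls. In batch 2 it was at 49.9, 48.5, 41.3 and 37.2 CPM in KO and 19.6 to 34.3 CPM (median 25.1) in controls. KO 3 of batch 1 lay inside the controls' range and all others above it, with log2 fold changes of 0.76 ± 0.18 (adjusted p = 0.0097) and 0.77 ± 0.13 (adjusted p = 5.2e-05). Pnpla2, the first lipase of droplet triglyceride, was at 186, 199, 187 and 199 CPM in KO of batch 2 and 125 to 159 CPM (median 154) in controls (0.38 ± 0.08, adjusted p = 0.00033). Plin2, the widely expressed droplet coat protein, did not pass in either batch (0.21 in batch 1, -0.27 in batch 2).

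The members that fell were of other roles. Ucp3, the uncoupling protein of muscle mitochondria, was at 81.6, 54.7, 66.9, 65.7 and 71.3 CPM in Bmal1 KO of batch 1 and 90.3 to 119 CPM (median 103) in controls, without overlap (-0.59 ± 0.10, adjusted p = 8.4e-05). In batch 2 it was at 71.5 to 83.8 CPM in KO and 55 to 110 CPM (median 80.8) in controls and did not pass (-0.14 ± 0.14, adjusted p = 0.59). Slc25a20, the carnitine-acylcarnitine carrier of the inner membrane, fell in batch 2 (-0.20 ± 0.07, adjusted p = 0.029), at 77.1, 87.9, 78.1 and 76.7 CPM in KO and 84.7 to 103 CPM (median 90.1) in controls. KO 7 lay inside the controls' range.

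The knockout effects of the batches were also set against each other. None of the 32 members differed between batches past the threshold, and 1 of 12565 genes did (0.00796%). At an unadjusted p under 0.05, 2 members differed, Ucp3 (batch 2 minus batch 1, 0.45 ± 0.19) and Plin2 (-0.48 ± 0.22). Over both batches the members highest by fold were Fabp3 (0.83 ± 0.11, adjusted p = 4.2e-06), Plin5 (0.77 ± 0.11, adjusted p = 9.2e-06), Angptl4 (0.63 ± 0.15, adjusted p = 0.0043) and Acadm (0.61 ± 0.05, adjusted p = 4.9e-14). Members that passed only with the batches joined were Cpt2, the inner-membrane carnitine palmitoyltransferase (0.25 ± 0.07, adjusted p = 0.005), Etfdh, which hands electrons on to ubiquinone (0.24 ± 0.07, adjusted p = 0.012), and Acadvl, the very-long-chain dehydrogenase (0.19 ± 0.06, adjusted p = 0.018). Groups that did not overlap were found for 3 members in batch 1, 2 higher and 1 lower (6.08% of genes in either direction), and for 7 in batch 2, all higher (9.95%).

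Among wider lists of fatty acid genes, the regulators that passed were lower. Of 20 regulators measured in batch 1, 5 fell and none rose (5.18% of all genes lower, 3.82% higher), led by Rxra, the partner receptor of the PPARs (-0.56 ± 0.10), Lpin1 (-0.45 ± 0.09) and Prkaa2, a catalytic subunit of AMP-activated kinase (-0.43 ± 0.09). In batch 2, 4 fell and none rose (6.96% of all genes lower, 6.94% higher), Rxra again among them (-0.51). None of 15 peroxisomal genes passed in batch 1, and 2 rose and 1 fell in batch 2. Of 23 further mitochondrial genes, 2 rose and 1 fell in batch 1, where Oxct1, which lets muscle burn ketone bodies, was lower (-0.78 ± 0.14). Vldlr, a PPAR target that takes up lipoproteins, fell in both batches (-0.71 and -0.76).

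Other cells' transcripts differed as well. The summed lymphocyte markers were at 227 to 348 CPM in Bmal1 KO and 42.7 to 112 CPM in controls of batch 1 on high-fat diet, and at 321 to 373 CPM in KO and 45 to 241 CPM in controls of batch 2, most of it from Ighm, while Cd79a and Cd3g were at 0 in the KO of batch 2. The slow-fibre sum was 361 to 1390 CPM in KO and 461 to 1440 CPM in controls of batch 1. Within the KO of batch 1 it was highest in animals 1, 2 and 4 (1260, 1010 and 1390 CPM, against 361 and 604 CPM in animals 3 and 5), which also had the highest Acadm, Hadha and Fabp3. In batch 2 it was 1390 to 1770 CPM in KO and 992 to 1470 CPM in controls. The part of these in the results was not tested. Calls of batch 1 with an adjusted p of 0.03 or more (Acads, Angptl4, Decr1, Etfa) were lost in 8 or 9 of the 12 fits that left out 1 library, and without control 5, 6 or 7 or KO 1, 2 or 4 the members higher numbered 6. In batch 2 Decr1 and Eci1 were lost in 8 of 12, Etfa without KO 6 or 8, and Slc25a20 without control 9 or 15 or KO 6, 8 or 9.

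**Figure D2:**
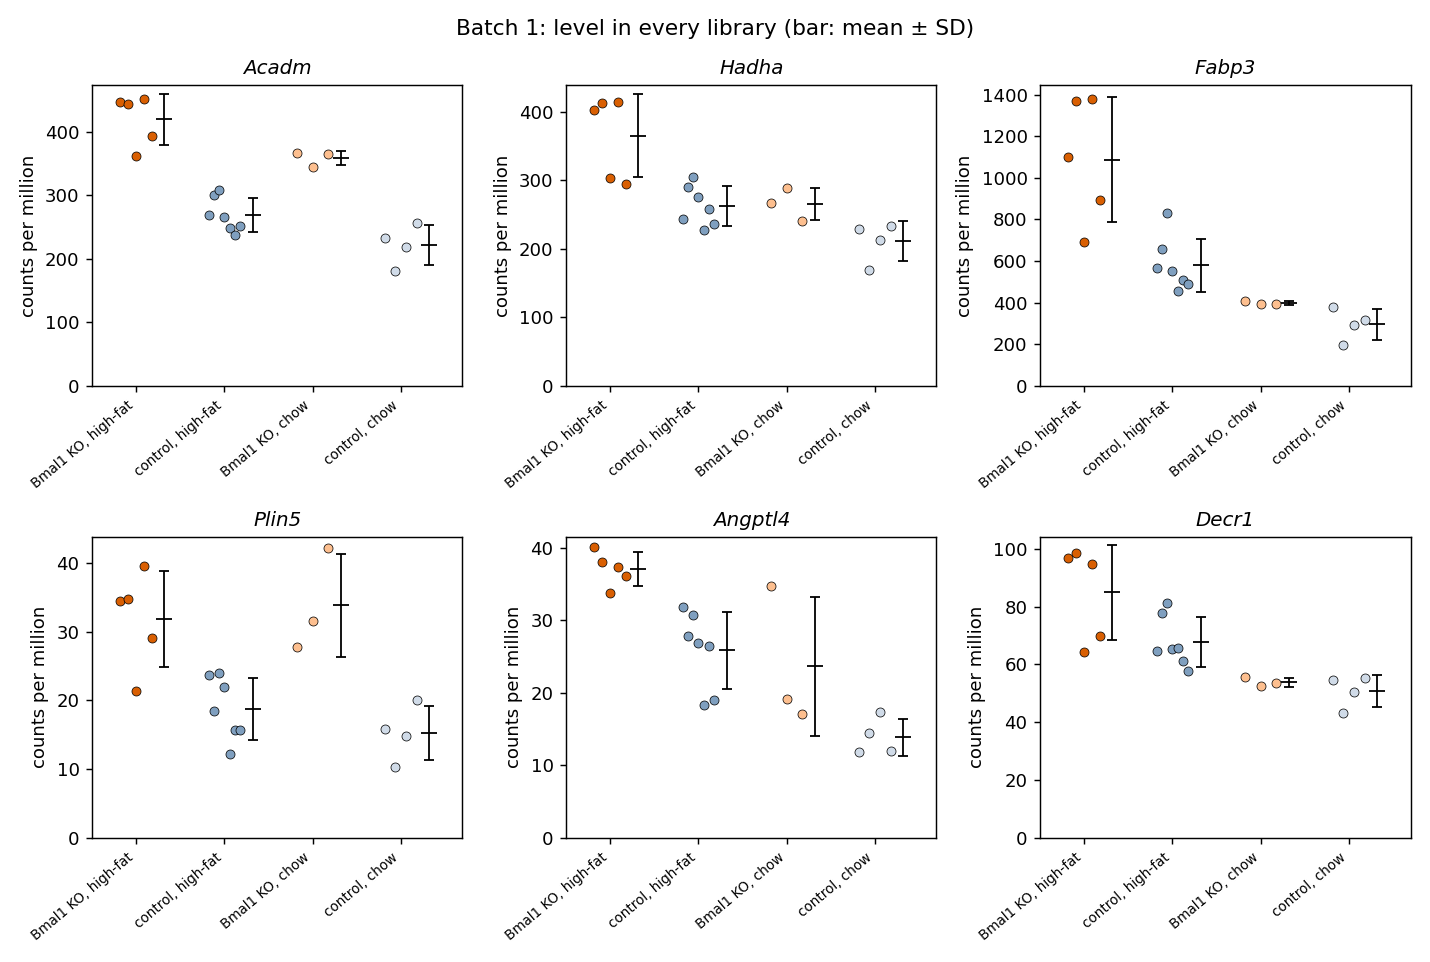
CPM of 6 members in each library of batch 1 (points), with the group mean and SD, for Bmal1 KO and control on high-fat diet and Bmal1 KO and control on chow. Acadm separates knockouts from controls under both diets, and Fabp3 and Decr1 separate the high-fat libraries from those on chow.

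On chow, loss of Bmal1 raised 4 members and lowered 1 of 32 (1.55% of 12762 genes higher, 2.29% lower, 3.84% in either direction), all of which had been called on high-fat diet in the same direction. Acadm was at 366, 345 and 364 CPM in KO and 232, 181, 219 and 256 CPM in controls (0.69 ± 0.11, adjusted p = 0.00012). Plin5 was at 27.7, 31.6 and 42.2 CPM in KO and 15.8, 10.3, 14.8 and 20 CPM in controls, 2.24-fold higher (1.16 ± 0.24, adjusted p = 0.0067). Acsl1 was at 275, 325 and 241 CPM in KO and 183, 161, 189 and 212 CPM in controls (0.59 ± 0.13, adjusted p = 0.0043). In these 3 genes every KO lay above every control.

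Angptl4 was at 34.7, 19.1 and 17.1 CPM in KO and 11.8, 14.4, 17.3 and 12 CPM in controls, with KO 1 far above the other KO and KO 3 just below the highest control (0.76 ± 0.21, adjusted p = 0.045). Ucp3 was the member that fell, at 73.6, 94.8 and 59.7 CPM in KO and 109, 110, 121 and 123 CPM in controls (-0.61 ± 0.13, adjusted p = 0.0039). Fabp3, among the largest changes on high-fat diet, was at 409, 394 and 395 CPM in chow KO and 379, 195, 293 and 316 CPM in chow controls and did not pass (0.43 ± 0.25, adjusted p = 0.51). Hadhb did not pass either (0.42 ± 0.14, adjusted p = 0.082). With 3 against 4 libraries, Acsl1 was lost without KO 2, Plin5 and Ucp3 without KO 3, and Angptl4 without KO 1 or control 1, 2 or 4. Of the members, 7 higher and 2 lower had groups that did not overlap (11.8% of genes).

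High-fat feeding raised members in both genotypes and lowered none past the threshold. In Bmal1 KO 8 of 32 rose (1.72% of 12762 genes higher, 1.57% lower, 3.28% in either direction), and in controls 5 of 32 (1.51% higher, 0.854% lower, 2.37% in either direction). The median member change was 0.22 in KO and 0.27 in controls, with all genes at -0.01 in both. Fabp3 was the member with the largest rise in both, 2.72-fold in KO (1.45 ± 0.25, adjusted p = 0.0046) and 1.96-fold in controls (0.97 ± 0.21, adjusted p = 0.022), and in each genotype every high-fat library lay above every chow library. Decr1 was at 96.9, 98.5, 64.4, 94.9 and 69.8 CPM in KO on high-fat diet and 55.5, 52.5 and 53.4 CPM in KO on chow (0.66 ± 0.13, adjusted p = 0.0039). In controls it was at 57.8 to 81.4 CPM (median 65.3) on high-fat diet and 43.3 to 55.4 CPM on chow (0.41 ± 0.12, adjusted p = 0.046). Neither genotype's diets overlapped for Decr1.

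Angptl4 did not pass in KO (0.65 ± 0.20, adjusted p = 0.079) and rose in controls, at 18.3 to 31.8 CPM (median 26.9) on high-fat diet and 11.8, 14.4, 17.3 and 12 CPM on chow (0.89 ± 0.18, adjusted p = 0.0073). The chow KO were at 34.7, 19.1 and 17.1 CPM, KO 1 highest, and with chow KO 1 and chow control 2 left out Angptl4 rose in both genotypes, by 1.03 in KO (adjusted p = 0.00092) and 0.90 in controls (adjusted p = 0.0012). Plin2 rose in KO, at 19.7, 20.6, 20.8, 24.8 and 15.7 CPM on high-fat diet and 11.5, 12.6 and 11.3 CPM on chow (0.79 ± 0.16, adjusted p = 0.0045). Its change in controls did not pass (0.36). Etfb, a subunit of electron transfer flavoprotein, rose in KO (0.47 ± 0.12, adjusted p = 0.019) and in controls (0.36 ± 0.10, adjusted p = 0.046), as did Acadvl (0.49 ± 0.14 in KO, adjusted p = 0.05 by rounding, just under the threshold, and 0.45 ± 0.12 in controls, adjusted p = 0.043). Slc25a20 (0.49 ± 0.13, adjusted p = 0.027), Acads (0.53 ± 0.13, adjusted p = 0.02) and Hadha (0.46 ± 0.13, adjusted p = 0.035) were called in KO.

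The diet effect was not shown to differ between genotypes. In the test of diet by genotype, 0 of 32 members and 0 of 12762 genes passed (0%) with edgeR, 575 genes and 0 members had an unadjusted p under 0.05, and DESeq2 called 3 genes. Plin2 (0.43 ± 0.21) and Fabp3 (0.47 ± 0.32) had the largest positive differences among members, and Plin5 (-0.40 ± 0.31) the largest negative one, each with adjusted p = 1.

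Mitochondrial transcripts also took a larger share on high-fat diet, at 30.1 to 37.9% in KO on high-fat diet against 23.3 to 28.9% in KO on chow, and 32.6 to 42.4% in controls on high-fat diet against 24.6 to 32.9% in controls on chow. Adipocyte markers (12, none at 0) summed 355 to 568 CPM in KO on high-fat diet and 202 to 453 CPM in KO on chow, and 302 to 601 CPM in controls on high-fat diet and 299 to 795 CPM in controls on chow. Among them Lep, the gene of leptin, rose, at 11.4 to 37.7 CPM in KO on high-fat diet and 0 to 2.16 CPM in KO on chow, and at 5.3 to 31.5 CPM in controls on high-fat diet and 0.479 to 4.73 CPM in controls on chow. Fabp4 rose in KO (0.95 ± 0.23), and Cfd fell in controls (-2.75 ± 0.61). Macrophage markers (10, none at 0) summed 53.1 to 82.1 CPM in KO on high-fat diet and 28.8 to 54.9 CPM in KO on chow, and 54 to 84.4 CPM in controls on high-fat diet and 42.9 to 71.5 CPM in controls on chow, with Csf1r (1.08 ± 0.25) and C1qb (1.02 ± 0.26) higher in KO and Cd68 (1.87 ± 0.45) in controls. Adipocytes and macrophages also express Plin2, Angptl4 and Cd36. The part of these in the results was not tested. Outside the module Lpin1, a phosphatidate phosphatase and coactivator, fell with the diet in KO (-0.80 ± 0.11) and in controls (-0.55 ± 0.10), and Dbi, which carries acyl-CoA, rose (0.69 in KO, 0.47 ± 0.09 in controls). None of the peroxisomal or further mitochondrial genes passed. Several calls in controls rested on single libraries. Members higher numbered 2 without high-fat control 2 or 3 and 1 without chow control 2 or 3, and Fabp3 was lost without chow control 2, 3 or 4, while Angptl4 was never lost. With chow KO 1 and chow control 2 both left out, 9 members were higher in KO, now with Angptl4, while in controls Angptl4 was the 1 member higher and Acacb (-0.36, adjusted p = 0.047) was lower. In KO, members higher numbered 3 without high-fat KO 4, chow KO 2 or chow KO 3, 4 without high-fat KO 1 and 5 without high-fat KO 2, and Decr1, Plin2 and Fabp3 were never lost. Groups did not overlap for 10 members higher and 1 lower in KO (11.2% of genes), and for 5 higher in controls (3.13%).

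In muscle without Vhl most genes of the pathway were lower than in controls. In Vhl KO 21 of 32 members fell and 4 rose (19.5% of 13093 genes lower, 17.7% higher, 37.2% in either direction), and the median member was at -0.44 with all genes at 0.01. Beta-oxidation gave 10 of 12 lower, electron transfer 3 of 3, uptake and activation 4 lower and 2 higher of 6, mitochondrial entry 3 lower and 1 higher of 5, and the droplet 1 lower and 1 higher of 3. None of the 3 overflow genes passed. The groups did not overlap for 16 members lower and 1 higher (22.4% of genes).

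Hadh (chr3:131233419-131272101), the dehydrogenase for short and medium hydroxyacyl chains, had the smallest p. It was at 97.8, 86.2, 76 and 110 CPM in Vhl KO 1 to 4 and 152 to 170 CPM (median 158) in the 6 controls (-0.79 ± 0.08, adjusted p = 8.1e-12, 0.577-fold). Acadm was at 194, 144, 153 and 198 CPM in Vhl KO and 245 to 301 CPM (median 286) in controls (-0.70 ± 0.07, adjusted p = 3.8e-11). Etfdh was at 55.7, 39, 37.3 and 49.9 CPM in Vhl KO and 67.2 to 87 CPM (median 79.4) in controls (-0.79 ± 0.09, adjusted p = 2.4e-10). All 4 KO lay below all controls in these 3 genes, with animals 2 and 3 lowest for Acadm and Etfdh.

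Echs1, the enoyl-CoA hydratase of short chains, was at 27.1, 23.4, 19.8 and 29.1 CPM in Vhl KO and 36.9 to 46.4 CPM (median 39.2) in controls (-0.71 ± 0.10, adjusted p = 1.4e-07). Decr1 was at 55, 43.6, 52 and 63.4 CPM in Vhl KO and 72.9 to 93.3 CPM (median 79.2) in controls (-0.59 ± 0.09, adjusted p = 5.2e-07). Acadvl was at 138, 90.5, 116 and 141 CPM in Vhl KO and 157 to 199 CPM (median 169) in controls (-0.50 ± 0.08, adjusted p = 2.3e-06). Again no KO reached the lowest control. Acaa2, the thiolase that closes the spiral (-0.71 ± 0.12), Eci1 (-0.62 ± 0.12), Hadhb (-0.45 ± 0.09), Acadl, the long-chain dehydrogenase (-0.43 ± 0.07), and Hadha (-0.34 ± 0.09) also fell, the last of these with adjusted p = 0.0044. Acads (-0.08, adjusted p = 0.47) and Eci2, a second isomerase (0.16, adjusted p = 0.13), did not pass.

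For entry into the mitochondrion, Slc25a20 (chr9:108662088-108684641) was at 73, 65.8, 63.8 and 71 CPM in Vhl KO and 85.7 to 105 CPM (median 90.4) in controls (-0.44 ± 0.07, adjusted p = 1.4e-06). Cpt2 fell (-0.53 ± 0.10, adjusted p = 4.3e-05), as did Crat, the acetyltransferase that buffers acetyl groups as acetylcarnitine (-0.22 ± 0.07, adjusted p = 0.014). Acacb, which makes the malonyl-CoA that inhibits entry, did not pass (-0.12, adjusted p = 0.32), and Mlycd, which degrades malonyl-CoA, rose (0.28 ± 0.08, adjusted p = 0.0055). Of the genes of electron transfer, Etfa (-0.54 ± 0.09) and Etfb (-0.39 ± 0.06) fell with Etfdh.

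At the uptake step, Lpl, the lipase that frees fatty acids from lipoproteins, was at 306, 190, 213 and 378 CPM in Vhl KO and 405 to 612 CPM (median 472) in controls (-0.84 ± 0.15, adjusted p = 8.5e-05). Its inhibitor Angptl4 moved the other way, at 29.6, 27.3, 19.7 and 14.2 CPM in Vhl KO and 8.06 to 21.8 CPM (median 11.6) in controls, with KO 3 and 4 inside the controls' range (0.75 ± 0.28, adjusted p = 0.034). Cd36, a fatty acid translocase that endothelium also expresses, rose (0.28 ± 0.09, adjusted p = 0.016), while Slc27a1, a transport protein with acyl-CoA synthetase activity (-0.63 ± 0.17, adjusted p = 0.0036), Fabp3 (-0.58 ± 0.18, adjusted p = 0.0098) and Acsl1 (-0.39 ± 0.09, adjusted p = 0.00094) fell. Fabp3 was at 504, 255, 353 and 647 CPM in Vhl KO and 591 to 763 CPM (median 652) in controls, so that KO 4 was inside the controls' range.

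The droplet coat proteins parted. Plin2 (chr4:86648386-86670060) was at 38.4, 34.3, 37.5 and 32.3 CPM in Vhl KO and 17 to 32.1 CPM (median 21.9) in controls, all 4 KO above all controls (0.63 ± 0.17, adjusted p = 0.0033). Plin5 (chr17:56111601-56117596) was at 17.5, 12.9, 11.4 and 18 CPM in Vhl KO and 16.2 to 24.1 CPM (median 19.1) in controls (-0.44 ± 0.16, adjusted p = 0.029). KO 1 and 4 lay inside the controls' range for Plin5. Pnpla2 did not pass (0.00, adjusted p = 0.97).

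The wider lists are set beside 19.5% of all genes lower and 17.7% higher. Of 23 further mitochondrial genes of fatty acid or ketone use 14 fell and 2 rose, with Acad11 (-1.21), Oxct1 (-1.07) and Acot13 (-0.85) lowest by fold among those named. Of 15 peroxisomal genes 7 fell and none rose, Phyh, which starts alpha-oxidation of phytanic acid, among them (-0.81). Of 20 regulators 9 fell and 2 rose (Prkaa2 -0.65, Rxra -0.58). Of 18 other droplet genes 8 fell and 5 rose, among them G0s2, an inhibitor of the Pnpla2 lipase (1.10), and of 16 other uptake genes 5 rose and 3 fell, led by Gpihbp1, which carries lipoprotein lipase on capillary endothelium (1.49). Without scaling these counts turned for most lists, with 6 lower and 4 higher of the mitochondrial genes, 1 lower and 4 higher of the peroxisomal, 3 lower and 7 higher of the regulators, 3 lower and 8 higher of the droplet and 2 lower and 11 higher of the uptake genes.

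The make-up of the RNA differed between Vhl KO and controls. Mitochondrial transcripts took 27.1 to 34.7% in Vhl KO and 34 to 38.8% in controls. The sum of 12 endothelial markers, none at 0, was 375 to 469 CPM in Vhl KO and 186 to 199 CPM in controls. Fast-fibre genes summed 78600 to 103000 CPM in Vhl KO and 120000 to 146000 CPM in controls, skeletal-muscle-defining genes 58200 to 61700 CPM in Vhl KO and 75100 to 97200 CPM in controls, and macrophage markers 76.2 to 144 CPM in Vhl KO and 63.2 to 121 CPM in controls. Their part in the results was not tested. Vhl KO 1 and 4, the animals with high slow-fibre sums, had the higher levels of Acadm, Lpl, Fabp3 and Plin5, and without both of them 21 members were called lower and 1 higher, with Acadm at -0.91, Hadh at -0.98, Lpl at -1.26 and Plin2 at 0.65. Acot2 (-1.21, adjusted p = 0.024) was among those lower and Crat (-0.21) was not, and Mlycd (0.19), Cd36 (0.08) and Angptl4 (0.81) no longer passed. With KO 1 alone left out, 1 member, Plin2, was called higher. Fabp3 was lost without KO 2 or KO 3, and Plin5 without control 1 or 5 or KO 2 or 3. With no TMM scaling, which moved the median of all genes by 0.35, 7 members were lower and 8 higher (5.22% of genes lower, 44.4% higher), and the median member stood at -0.10.

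**Figure D3:**
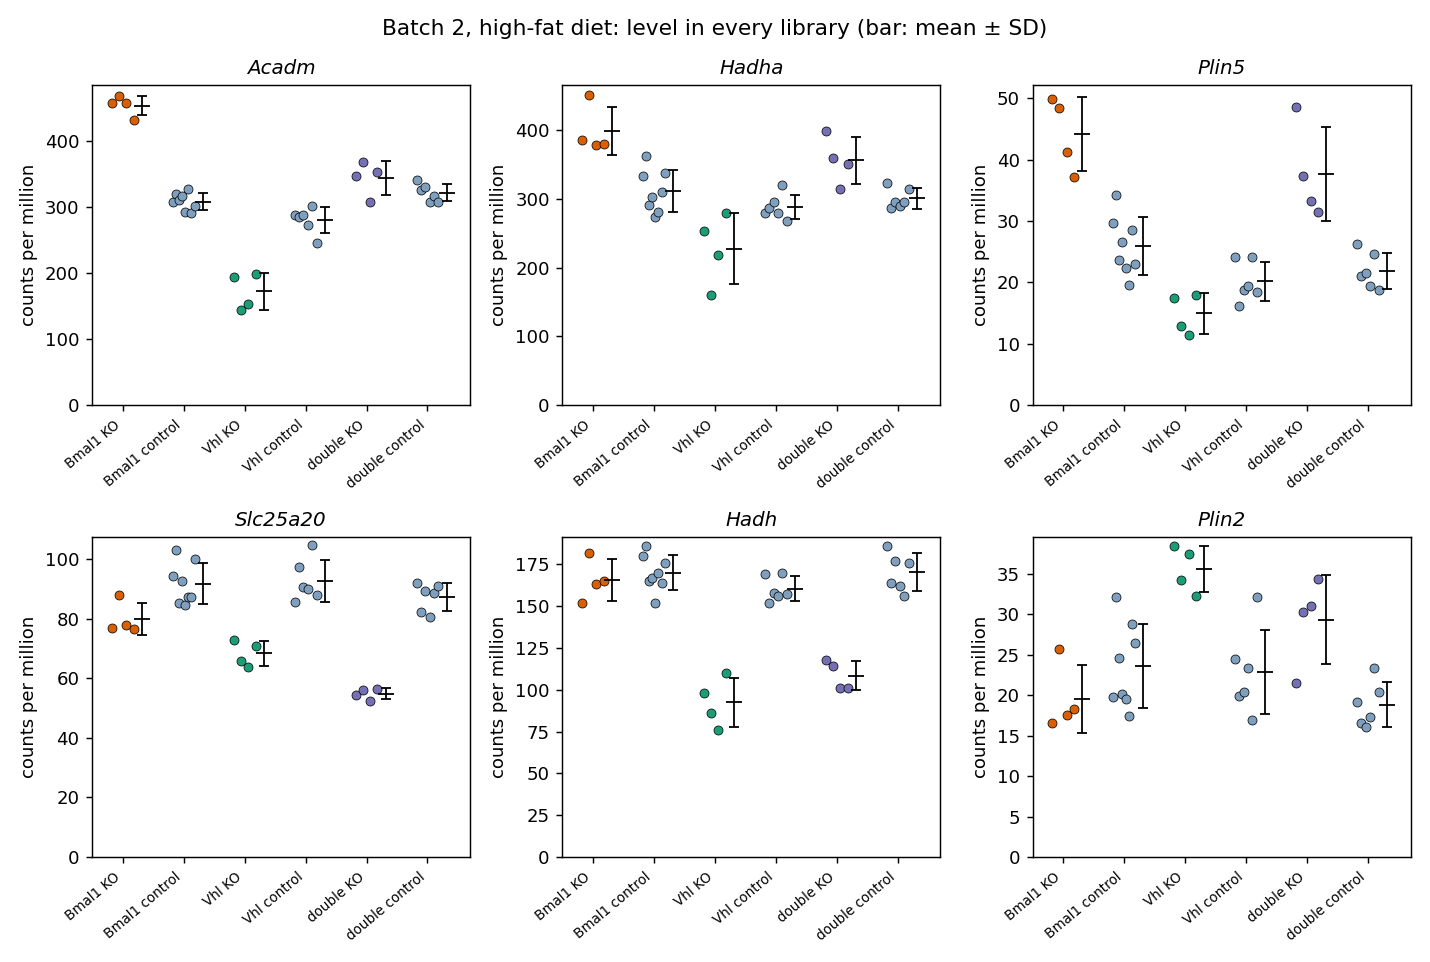
CPM of 6 members in each library of batch 2 (points), with the group mean and SD, for each knockout beside its own control. Acadm and Hadha are high in Bmal1 KO and low in Vhl KO, Hadh and Slc25a20 are low in both Vhl KO and double KO, and Plin2 is high in both.

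With Bmal1 and Vhl both lost, 9 of 32 members were higher than in controls and 9 lower (17.4% of 13093 genes higher, 18.1% lower, 35.4% in either direction). The median member was at 0.03, all genes at 0.01. All 3 droplet genes rose, as did Acot1 and Acot2 of the 3 overflow genes, 2 of 6 uptake genes and 1 each of mitochondrial entry and beta-oxidation. The 9 that fell were 5 of 12 beta-oxidation genes, 2 of 5 of entry, 1 of electron transfer and 1 of uptake. The groups did not overlap for 6 members higher and 10 lower (24% of genes).

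Slc25a20 had the smallest p, at 54.3, 56.1, 52.4 and 56.6 CPM in double KO 1 to 4 and 80.5 to 92 CPM (median 89.1) in the 6 controls (-0.67 ± 0.07, adjusted p = 6.6e-11, 0.628-fold). Hadh was at 118, 114, 101 and 101 CPM in double KO and 156 to 186 CPM (median 170) in controls (-0.65 ± 0.08, adjusted p = 1e-09). Acacb was at 77.8, 65.1, 61 and 63.5 CPM in double KO and 92.1 to 116 CPM (median 98.9) in controls (-0.60 ± 0.10, adjusted p = 2.7e-06). The 4 double KO lay below every control in these 3 genes. Echs1 (-0.58 ± 0.10, adjusted p = 3.5e-06), Acaa2 (-0.65 ± 0.12, adjusted p = 6e-05), Acadvl (-0.44 ± 0.08, adjusted p = 1.7e-05), Etfb (-0.37 ± 0.06, adjusted p = 7.2e-06), Acads (-0.33 ± 0.09, adjusted p = 0.0023) and Lpl (-0.52 ± 0.15, adjusted p = 0.0088) also fell.

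Angptl4 (chr17:33773750-33781830) showed the largest rise by fold. It was at 32.6, 35.2, 33.9 and 47 CPM in double KO and 8.48 to 14.7 CPM (median 14) in controls, 2.85-fold higher (1.51 ± 0.26, adjusted p = 4.7e-05). Plin5 was at 48.6, 37.4, 33.2 and 31.5 CPM in double KO and 18.7 to 26.2 CPM (median 21.3) in controls (0.78 ± 0.14, adjusted p = 5.3e-05). No double KO overlapped with a control for either gene. Plin2 was at 21.5, 30.3, 31.1 and 34.4 CPM in double KO and 16.1 to 23.4 CPM (median 18.3) in controls, with KO 1 inside the controls' range (0.65 ± 0.17, adjusted p = 0.0027). Pnpla2 was at 249, 168, 173 and 183 CPM in double KO and 136 to 163 CPM (median 156) in controls, KO 1 far above the others (0.33 ± 0.08, adjusted p = 0.0016).

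Acot1 and Acot2 are thioesterases that release free fatty acid from acyl-CoA in the cytosol and the mitochondrion. They are close paralogs whose reads may be split between them, so that each value is uncertain. Acot1 was at 7.45, 6.04, 5.7 and 6.73 CPM in double KO and 1.71 to 5.49 CPM (median 3.16) in controls (0.99 ± 0.23, adjusted p = 0.00051). Acot2 was at 74.4, 52.7, 61.4 and 113 CPM in double KO and 22.7 to 66.5 CPM (median 34) in controls (1.00 ± 0.33, adjusted p = 0.019). The control lines differed for Acot2, at 102 to 154 CPM in Vhl controls and 41.5 to 123 CPM in Bmal1 controls of batch 2. Vhl KO were at 49.9 to 152 CPM, a range that holds every double KO. The part of the control levels in the Acot2 call was not tested. Cd36 (0.39 ± 0.09, adjusted p = 0.00093), Mlycd (0.31 ± 0.08, adjusted p = 0.002) and Hadha (0.24 ± 0.09, adjusted p = 0.038) rose as well.

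Acadm, Fabp3 and Acsl1, which rose in Bmal1 KO and fell in Vhl KO, did not pass in the double KO. Acadm was at 346, 368, 308 and 352 CPM in double KO and 308 to 341 CPM (median 321) in controls, which overlap (0.10 ± 0.07, adjusted p = 0.29). Fabp3 was at -0.04 and Acsl1 at 0.01. Etfdh, which fell in Vhl KO, did not pass either (-0.19 ± 0.08, adjusted p = 0.077). Double KO 1 was the highest of its group for Fabp3 (1050 CPM, the others 659 to 694 CPM) and had the lowest depth of the series, 6.95 M counts.

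Of the wider lists, set beside 18.1% of all genes lower and 17.4% higher, 12 of 20 regulators fell and 2 rose in double KO (Prkaa2 -0.69, Prkag3 -0.91, Ppard 0.82), and 11 of 23 further mitochondrial genes fell and 3 rose, led by Oxct1 (-1.50). Of 18 other droplet genes 8 fell and 5 rose, with Dgat2, which makes triglyceride, lowest (-2.27) and Agpat3 (1.11) and G0s2 (1.33) higher. Without scaling 5 regulators were lower and 5 higher, 6 mitochondrial genes lower and 7 higher, and 1 droplet gene lower and 8 higher. Endothelial markers summed 301 to 405 CPM in double KO and 178 to 193 CPM in controls, adipocyte markers 767 to 1080 CPM in double KO and 438 to 784 CPM in controls, fast-fibre genes 101000 to 105000 CPM in double KO and 133000 to 143000 CPM in controls, and slow-fibre genes 1120 to 1430 CPM in double KO and 998 to 1680 CPM in controls. Mitochondrial transcripts took 16.6 to 23% in double KO and 22.3 to 29.4% in controls. Adipocytes express Lpl, Cd36, Angptl4, Plin2 and Pnpla2 as well. Their part in the results was not tested. Without scaling, which moved the median of all genes by 0.37, 20 members were higher and 4 lower (47.6% of genes higher, 5.94% lower), and Acads turned from a fall to 0.03. Acot2 was lost without KO 4, Pnpla2 without KO 1, and Hadha in 7 of 10 fits that left out a library.

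**Figure D4:**
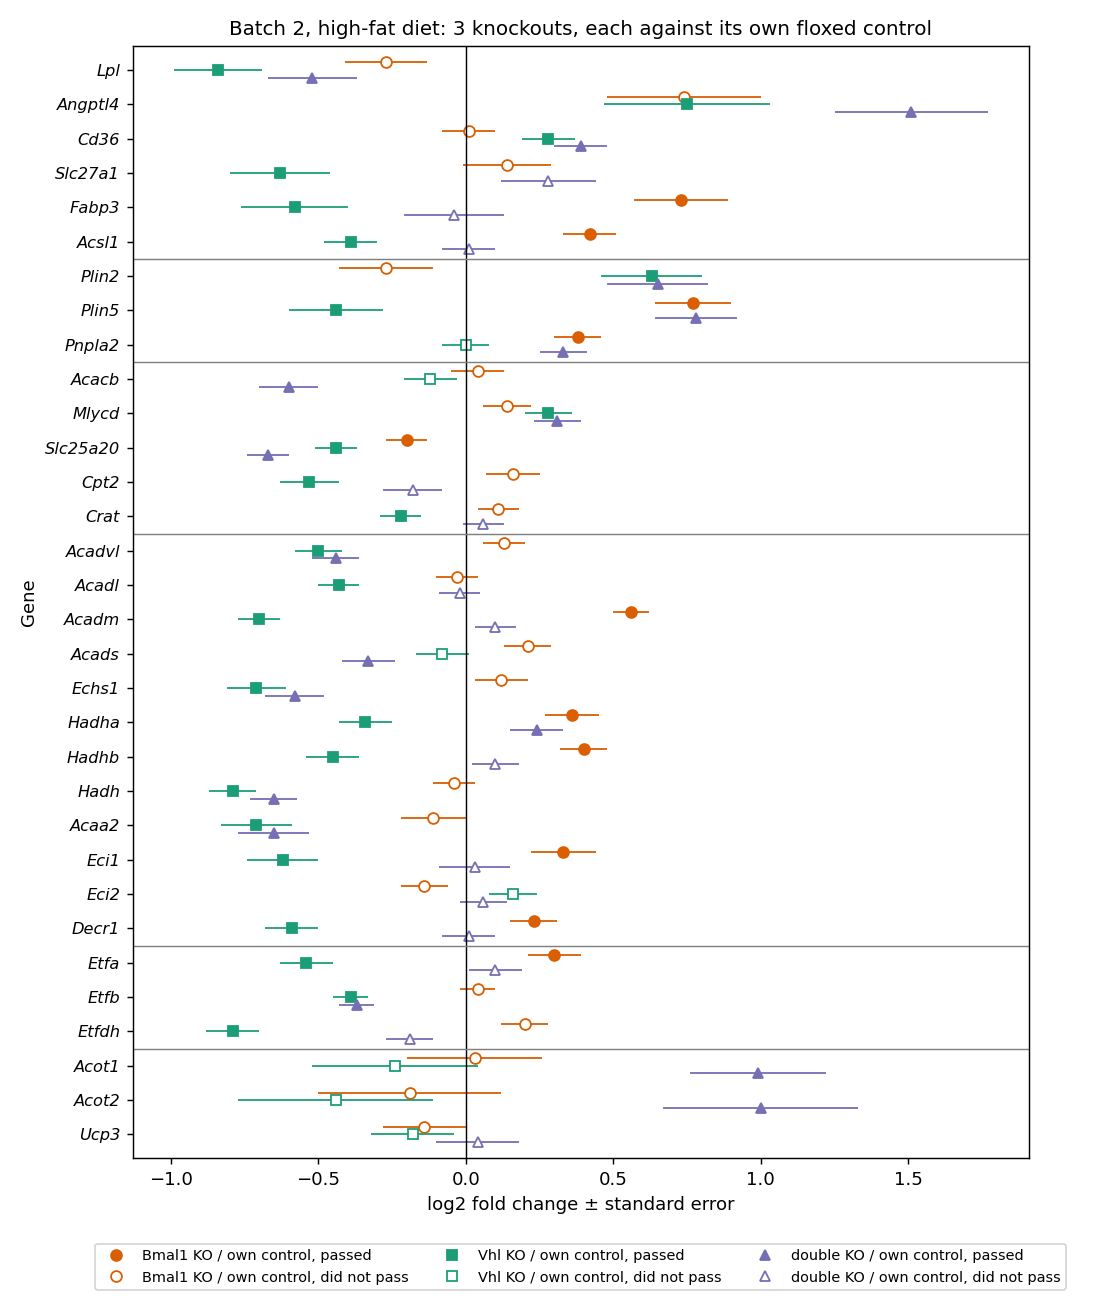
Log2 fold change ± standard error of the 32 measured members in Bmal1 KO, Vhl KO and double KO of batch 2, each against its own floxed control. Filled symbols passed an adjusted p under 0.05. For Acadm, Hadhb, Fabp3 and Acsl1 the Bmal1 KO lies above 0, the Vhl KO below it and the double KO between them.

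The 3 knockout effects of batch 2 were then tested against one another, each effect taken from its own controls. The Vhl effect lay below the Bmal1 effect in 21 of 32 members and above it in 2 (13.1% of 13093 genes lower, 12.2% higher, 25.3% in either direction). The widest gaps were Fabp3 (-1.31 ± 0.24, adjusted p = 0.00014), Acadm (-1.26 ± 0.10, adjusted p = 1.6e-14), Plin5 (-1.20 ± 0.21, adjusted p = 3.8e-05) and Etfdh (-1.0 ± 0.11, adjusted p = 2.9e-09). Plin2 (0.90 ± 0.23, adjusted p = 0.0046) and Eci2 (0.30 ± 0.11, adjusted p = 0.043) had the Vhl effect above the Bmal1 effect. In 9 members the Bmal1 KO had risen and the Vhl KO had fallen, namely Fabp3, Acsl1, Plin5, Acadm, Hadha, Hadhb, Eci1, Decr1 and Etfa.

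Set against the Vhl KO, the effect of the double knockout was higher in 12 members and lower in 1 (4.51% of genes higher, 4.06% lower, 8.56% in either direction). It was higher for 6 of 12 beta-oxidation genes, with Acadm at 0.80 ± 0.10 (adjusted p = 9.6e-08), Decr1 at 0.60 ± 0.12 (adjusted p = 0.00088) and Hadhb at 0.56 ± 0.12 (adjusted p = 0.0016), and for Plin5 (1.21 ± 0.21, adjusted p = 0.00029), Etfdh (0.61 ± 0.12, adjusted p = 0.00044) and Etfa (0.64 ± 0.13, adjusted p = 0.00094). Acacb was the member that was lower (-0.47 ± 0.13, adjusted p = 0.019), a call lost without Vhl KO 1. Acot1 (1.23 ± 0.36, adjusted p = 0.025) was lost without Vhl KO 3. Hadh, Echs1, Slc25a20 and Acaa2, which fell in both, did not pass in this test. Without Vhl KO 1 and 4, 17 members passed. Each difference also takes in the levels of both control lines. For Acadm, double KO were at 308 to 368 CPM and Vhl KO at 144 to 198 CPM. Their controls were at 308 to 341 and 245 to 301 CPM. For Eci1 (0.65 ± 0.17), double KO were at 89.3 to 106 CPM and Vhl KO at 70.2 to 99.7 CPM. Its controls were at 78.9 to 117 CPM in the double line and 122 to 160 CPM in the Vhl line. The part of the control levels in these calls was not tested.

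Against the Bmal1 KO, the effect of the double knockout was lower in 12 members and higher in 3 (9.04% of genes lower, 7.69% higher, 16.7% in either direction). Echs1 (-0.70 ± 0.13, adjusted p = 8.9e-05), Acacb (-0.64 ± 0.13, adjusted p = 0.00037), Hadh (-0.61 ± 0.10, adjusted p = 1.6e-05), Acadvl (-0.57 ± 0.11, adjusted p = 0.00014), Slc25a20 (-0.47 ± 0.09, adjusted p = 0.00026) and Acadm (-0.46 ± 0.09, adjusted p = 0.00034) were among those lower. Plin2 (0.92 ± 0.23, adjusted p = 0.0059), Acot1 (0.96 ± 0.32, adjusted p = 0.033) and Cd36 (0.38) were higher.

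Set against the sum of both single knockout effects, the double knockout differed in 1 member, Acadl (0.44 ± 0.12; 2.15% of genes higher, 1.64% lower, 3.79% in either direction). That call was lost without Bmal1 KO 8 or 9, double KO 4 or Vhl KO 3. Without Vhl KO 1 and 4, 6 members passed, all higher than the sum. They were Acadl (0.54), Acadm (0.45), Etfdh (0.65), Lpl (1.02), Acot1 (1.83) and Acot2 (2.40). For Acot2 the controls of the double line were at 22.7 to 66.5 CPM and those of the Vhl line at 102 to 154 CPM. Acadm had single effects of 0.56 and -0.70 and a double effect of 0.10, and its difference from the sum over all libraries was 0.24 ± 0.12.

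By pattern over the 3 knockouts of batch 2, 7 members fell in both Vhl KO and double KO (Lpl, Slc25a20, Acadvl, Echs1, Hadh, Acaa2 and Etfb), 4 rose in both (Angptl4, Cd36, Plin2 and Mlycd), 2 fell in Vhl KO and rose in double KO (Plin5 and Hadha), and 12 fell in Vhl KO and did not pass in double KO. Acacb and Acads were called lower in double KO and not in either single knockout. Eci2 passed in none of the 7 comparisons of groups. The controls of each line were separate animals, but the 3 tests of differences share these effects and are not independent of one another. Transcripts of some members overlap other genes. Fabp3, Acsl1, Crat, Acadvl, Echs1, Hadha, Eci2 and Etfdh overlap exons of a gene on the opposite strand, and Etfb and Cpt1b of one on the same strand, and the strand setting of the counting is not given in those sources.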

How the data were processed

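Counts per gene symbol of 51 libraries were taken as the authors deposited them, in 1 table per batch. Per the labels' protocols, RNA came from snap-frozen muscle by TRIzol and a Direct-zol column, and 300 ng went into the Lexogen QuantSeq 3′ forward kit. The submitters' processing notes name FastQC 0.11.4, STAR 2.6.0, HTSeq (version not given in the sources used here) and edgeR 3.26.8, with mm10 and GRCm38.p4 as builds. Normalized counts, also deposited, were not used. Labels say 1 animal per library, so p-values measure the spread between animals.

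Differences were tested here with edgeR 4.0.16 in R 4.3.3: filterByExpr at its defaults (12762 genes kept in batch 1, 13093 in batch 2, 12565 in the joint fit), TMM scaling, robust quasi-likelihood fits of all groups of a batch together, and Benjamini-Hochberg adjustment over all genes with a threshold of 0.05. The joint fit of the 24 high-fat libraries of the Bmal1 line had a batch term. CPM values are scaled by TMM within a batch, so levels are set side by side within a batch. The fits were tested on simulated data. All 33 members were examined, every called member could be named, and values per library were given for up to 8 members with the smallest p in a comparison. Of each wider list up to 3 members with the smallest p were named. The members and lists were chosen with earlier results of these data known. Gene positions are from GENCODE M21 (GRCm38). Alternatives were DESeq2 1.42.0, RLE scaling or none, no filter or an average log2 CPM of at least 1, fits of single comparisons, no mitochondrial transcripts, a block for the animal number, leaving out libraries in turn, and leaving out chow control 2 with chow Bmal1 KO 1. A fit without Vhl KO 1 and 4 was added after the data were seen.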

Additional observations from a re-analysis of the deposited data

Results flagged for a closer look

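Among 288 sets of a member's CPM in a group of 4 to 8 libraries, 17 had 1 library far from the others by Dixon's test, and chance alone gives about 1 in 20. Double KO 1 was the high library for Fabp3 (1050 CPM, the others 659 to 694 CPM), Hadhb (163, the others 120 to 125), Decr1 (95.1, the others 75.9 to 77.9) and Mlycd (88.7, the others 77.2 to 78.3), and double KO 2 was the low one for Etfdh (59.5, the others 67.2 to 68.1). Bmal1 KO 7 of batch 2 was the high library for Hadha (451, the others 378 to 385), Acadl (359, the others 303 to 313) and Slc25a20 (87.9, the others 76.7 to 78.1). In batch 1, Bmal1 KO 5 on high-fat diet was low for Slc27a1 (5.68, the others 7.93 to 8.22), and 1 chow control was high for Pnpla2 (243, the others 170 to 180) and 1 for Cpt2 (30.4, the others 21.2 to 22.6). Bmal1 controls of batch 2 held single high libraries for Angptl4 (27.7, the others 6.57 to 15.3) and Eci2 (58.5, the others 48.8 to 52.1) and a low one for Acacb (73.5, the others 92.9 to 109). Vhl controls held a high library for Slc27a1 (21.7, the others 10 to 11.9) and for Eci1 (160, the others 122 to 128) and a low one for Acads (50.2, the others 57.7 to 60.4).

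The knockout effects of batch 2 differed from each other by edgeR's test of the difference in 52 member results. The Vhl effect minus the Bmal1 effect was, for uptake and activation, -0.56 for Lpl, -0.77 for Slc27a1, -1.31 for Fabp3 and -0.81 for Acsl1. On the droplet it was 0.90 for Plin2, -1.20 for Plin5 and -0.39 for Pnpla2, and for mitochondrial entry -0.69 for Cpt2 and -0.32 for Crat. In beta-oxidation it was -0.63 for Acadvl, -0.40 for Acadl, -1.26 for Acadm, -0.83 for Echs1, -0.70 for Hadha, -0.85 for Hadhb, -0.75 for Hadh, -0.60 for Acaa2, -0.95 for Eci1, 0.30 for Eci2 and -0.82 for Decr1. In electron transfer it was -0.83 for Etfa, -0.43 for Etfb and -1.0 for Etfdh.

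The effect of the double knockout minus the Bmal1 effect was 0.38 for Cd36, -0.77 for Fabp3, -0.40 for Acsl1, 0.92 for Plin2, -0.64 for Acacb, -0.47 for Slc25a20, -0.57 for Acadvl, -0.46 for Acadm, -0.53 for Acads, -0.70 for Echs1, -0.61 for Hadh, -0.54 for Acaa2, -0.41 for Etfb, -0.39 for Etfdh and 0.96 for Acot1. The same effect minus the Vhl effect was 0.91 for Slc27a1, 0.41 for Acsl1, 1.21 for Plin5, -0.47 for Acacb, 0.41 for Acadl, 0.80 for Acadm, 0.58 for Hadha, 0.56 for Hadhb, 0.65 for Eci1, 0.60 for Decr1, 0.64 for Etfa, 0.61 for Etfdh and 1.23 for Acot1. Minus the sum of both single effects it was 0.44 for Acadl.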

How the results depend on the processing

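Fold changes were counted here only for members called in the main fit of a comparison. Under the planned and added alternatives other than leaving out 1 library, 1169 of these fold changes kept their direction and side of the threshold. A further 112 kept the direction and no longer passed, and 2 turned. Over the fits that left out 1 library these counts were 2145, 215 and none. Causes were not tested.

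Without scaling, which moved the median of all genes by 0.16 in Bmal1 KO of batch 1 on high-fat diet, by -0.18 for diet in controls, by 0.35 in Vhl KO, 0.37 in double KO and 0.12 in both batches, Crat turned to 0.13 in Vhl KO (main -0.22) and Acads to 0.03 in double KO (main -0.33). Members higher then numbered 17 in Bmal1 KO of batch 1 on high-fat diet, 8 in Vhl KO, 20 in double KO, 5 for diet in KO and 2 for diet in controls, where 1 was lower. Members lower numbered 7 in Vhl KO, 4 in double KO and 0 in Bmal1 KO of batch 2 and of both batches. All genes called numbered 709 for diet in controls (main 302), 7008 in double KO (main 4638), 1 for diet by genotype (main 0) and 0 between batches (main 1).

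DESeq2 called 3 genes for diet by genotype, 2 between batches and 4 members in the double knockout against the sum (main 1). With no filter, members higher numbered 7 on chow (main 4) and 9 for diet in controls, with 492 genes, 8 genes passed for diet by genotype and 14 between batches, 4 members against the sum, and 0 members were lower in Bmal1 KO of batch 2. Fitted alone, the chow comparison called 313 genes (main 490). Without mitochondrial transcripts 2 members differed from the sum. Without chow control 2 and chow Bmal1 KO 1, 1 member was higher and 1 lower for diet in controls. Without Vhl KO 1 and 4, 1 member was higher in Vhl KO, 740 genes differed between double and Vhl KO (main 1121), and 263 genes and 6 members differed from the sum (main 496 genes).

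The shared animal numbers gave no sign of pairing between samples. In Bmal1 KO of batch 1 on high-fat diet the correlations of same-numbered deviations ran from -0.131 to 0.14. In no comparison were all over 0.1. With 2 to 5 shared numbers in a comparison, this check cannot exclude pairing. With the replicate block, members higher numbered 5 in Bmal1 KO of batch 1 on high-fat diet and 1 in batch 2, where 0 were lower and 598 genes passed (main 1820). In both batches 1688 genes passed (main 2815) and 2 members were lower. The block left 1318 genes and 13 members for Vhl against Bmal1 KO (main 3311 and 23), 717 and 7 for double against Bmal1 KO (main 2191 and 15), 225 and 4 against the sum, 1 gene for diet by genotype and 0 between batches.

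Leaving out 1 library at a time gave 6 to 11 members higher in Bmal1 KO of batch 1 on high-fat diet, 293 to 502 genes and 0 to 1 members lower on chow, 132 to 370 genes and 3 to 10 members higher for diet in KO, 181 to 308 genes and 1 to 5 members higher for diet in controls, 0 to 3 genes for diet by genotype, 0 to 1 members lower in Bmal1 KO of batch 2, 1 to 4 members higher in Vhl KO, 300 to 972 genes and 0 to 3 members against the sum, 1 to 2 members lower in both batches, and 0 to 2 genes between batches. With 3 or 4 libraries in the smallest groups, changes below about the sizes named above may have been missed, and members at low CPM such as Acot1 had the widest errors.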
